A study of Mus musculus with 4 samples.

Results

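The 10 genes described here encode 6 synaptotagmins (Syt1, Syt4, Syt5, Syt6, Syt7, and Syt11), the 3 proteins of the neuronal fusion complex (Snap25, Stx1a, and Vamp2), and the vesicle membrane protein synaptophysin (Syp). They are 10 of the 33565 genes of the count matrices and were taken by symbol, as presynaptic genes chosen by their levels per cell line in these data, with Syt6 already known to be high in N2a. The values across the 3 cell lines are therefore a description of the genes, without a test.

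The genes were measured by CapSeq, a scRNA-seq method in which cells are enclosed in capsules and barcoded by splitting and pooling. The first barcode, BC1, gives the plate well and therefore the cell line. The cells were N2a (Neuro-2a), from a mouse neuroblastoma, NIH/3T3, immortalized fibroblasts from mouse embryos, and mESCs, mouse embryonic stem cells of the line E14TG2a. The labels name no treatment, and the 3 lines were prepared together as 1 library with no replicate cultures, so a line cannot be told apart from the plate columns it occupied. N2a and NIH/3T3 cells shared a DMEM medium with serum, whereas mESCs were kept on gelatin with serum, leukemia inhibitory factor, CHIR99021, and PD0325901.

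After cells with fewer than 1000 UMIs or more than 20% mitochondrial UMIs were left out, 2323 N2a cells, 2037 NIH/3T3 cells, and 2137 mESCs remained, with a median of 6185, 4863, and 4803 UMIs per cell. The UMIs of these cells summed to 17955221, 11697865, and 12322098, and 0 barcodes were shared between any pair of lines. Of the 12 markers listed for each line, 10 were at least 2-fold highest in N2a, 9 in NIH/3T3 cells, and 12 in mESCs. In CPM, the UMIs of a gene per 1000000 UMIs of the kept cells of a line, the N2a list, which holds genes of sympathetic neuroblasts, summed to 1833 CPM in N2a, 19.3 CPM in NIH/3T3 cells, and 72.1 CPM in mESCs. Its first genes were Hand2, at 404.2 CPM in N2a, Gata2, at 38.6 CPM, and Gata3, which went against the list with 3.84 CPM in N2a and 8.44 CPM in mESCs. The first NIH/3T3 markers had 28.6 CPM (Col1a1), 460.6 CPM (Col1a2), and 233.4 CPM (Cav1) in their own line and 0.893 CPM or less in the others. The whole NIH/3T3 list summed to 2831 CPM in NIH/3T3, 786.2 CPM in N2a, and 302.2 CPM in mESCs. Its members Fbln2, Cald1, and Tgfbi, named after their values were seen, went against the list, with more in N2a than in NIH/3T3. Fbln2 was at least 2-fold highest in N2a, at 318.1 CPM against 32.9 CPM in NIH/3T3. Cald1 had 463.3 against 259.4 CPM, and Tgfbi 1.78 against 0.171 CPM, in the same order of lines. Cald1, which also reached 287.2 CPM in mESCs, was the largest part of the N2a and mESC sums. The first mESC markers had 57.8 CPM (Pou5f1), 571.7 CPM (Nanog), and 1318 CPM (Zfp42) in mESCs, with at most 1.56 CPM elsewhere.

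Neurons release transmitter when calcium entry drives a docked vesicle to fuse with the plasma membrane. The fusion is carried out by SNARE proteins, of which Vamp2 sits on the vesicle and Snap25 and Stx1a sit on the plasma membrane, and their helices zip together across the gap. Synaptotagmins are membrane proteins with paired C2 domains. In some of them, such as Syt1, these domains bind calcium and trigger fusion, whereas others, such as Syt4 and Syt11, are thought not to be calcium sensors for fusion.

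The genes lie on 9 chromosomes of GRCm39, since Syt6 (chr3:103482484-103552885, forward strand) and Syt11 (chr3:88632134-88682471, reverse strand) share chromosome 3. Syt1 is at chr10:108333505-108846856 on the reverse strand, Syt5 at chr7:4542756-4550922 on the reverse strand, and Syt7 at chr19:10366033-10430544 on the forward strand. Snap25 is at chr2:136533580-136624362, Stx1a at chr5:135052139-135079963, Vamp2 at chr11:68979316-68983210, and Syp at chrX:7504710-7519499, all on the forward strand. The position of Syt4 is not given. The counts are per gene and cannot be assigned to exons, introns, or UTRs.

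Because most of the genes were highest in the same line, the 250 bases before the outermost annotated start of each gene were read from GRCm39 and searched on both strands for 6 short motifs, the GC box GGGCGG, the E-box CANNTG, the CCAAT box CCAAT, the TATA box TATAAA, and CAGCACC and GGACAG, which are parts of the RE1 element. The window of Syt6, the gene with the largest difference between lines, is set here beside those of Syt1, which was also detected in NIH/3T3 cells, and Vamp2, which was detected in all lines. Capitals mark E-box and GC box matches. The windows are chr3:103482234-103482483 (forward strand), chr10:108846857-108847106 (reverse strand), and chr11:68979066-68979315 (forward strand).
Syt6: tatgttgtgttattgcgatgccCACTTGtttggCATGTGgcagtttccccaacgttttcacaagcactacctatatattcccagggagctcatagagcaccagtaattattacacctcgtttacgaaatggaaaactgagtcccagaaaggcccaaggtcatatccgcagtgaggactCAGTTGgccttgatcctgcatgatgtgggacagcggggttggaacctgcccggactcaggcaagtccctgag
Syt1: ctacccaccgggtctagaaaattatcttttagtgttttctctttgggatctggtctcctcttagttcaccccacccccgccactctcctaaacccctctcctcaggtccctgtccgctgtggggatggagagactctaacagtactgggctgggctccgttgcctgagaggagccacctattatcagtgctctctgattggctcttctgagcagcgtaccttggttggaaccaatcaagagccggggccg
Vamp2: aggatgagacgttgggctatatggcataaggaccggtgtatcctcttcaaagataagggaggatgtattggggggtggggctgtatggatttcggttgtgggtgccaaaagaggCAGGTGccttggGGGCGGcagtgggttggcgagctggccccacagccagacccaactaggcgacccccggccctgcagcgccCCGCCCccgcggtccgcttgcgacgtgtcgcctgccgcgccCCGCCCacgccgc
The Syt6 window held 3 E-boxes and 0 GC boxes, with 50% G and C bases and 7 CpG dinucleotides. The Syt1 window held 0 GC boxes and 0 E-boxes, with 54.8% G and C bases and 7 CpG dinucleotides. The Vamp2 window, which overlaps an exon of the annotated gene Gm73772, held 3 GC boxes, 1 E-box, and 20 CpG dinucleotides, with 66.0% G and C bases. Among the 21770 protein-coding genes of GENCODE M39, 29.9% had a GC box and 66.5% had an E-box in the same window, and the median G and C content was 51.2%. Of the 10 genes, only Vamp2 and Syt11 (68.4% G and C bases, 2 GC boxes) had a GC box. The CCAAT box had 2 matches in the Syt1 window and 1 each in those of Vamp2 and Syt4, against 36.1% of all windows with a match, and GGACAG had 1 match each for Syt1, Syt5, and Syt6, against 19.4%. The TATA box matched for Syt4, against 12.5% of windows, and CAGCACC for 0 of the 10 genes, against 5.30%. A match is a string of letters and not a binding site, and no binding was measured here.

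Levels in CPM can be compared between lines but not between genes, since the share of each gene's transcripts that is counted was not measured. A gene was called highest in a line when its CPM + 1 was at least 2-fold above each of the other lines. By this rule 8 of the 10 genes were highest in N2a, 0 in NIH/3T3, and 0 in the mESCs, with Syt4 and Vamp2 called in no line. Of the 19248 genes with at least 10 UMIs, 9.96% were called highest in N2a, 8.98% in NIH/3T3 cells, and 12.8% in mESCs. All 10 genes passed that minimum of 10 UMIs. The median log2 difference of CPM + 1 between N2a and the higher of the other lines was 3.41 over the 10 genes and -0.36 over all genes tested. Since N2a levels entered the choice of the genes, nothing further is read from the contrast. Intervals at the 95% level, exact Poisson for levels and exact binomial for shares of cells, cover counting error only.

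**Figure D1:**
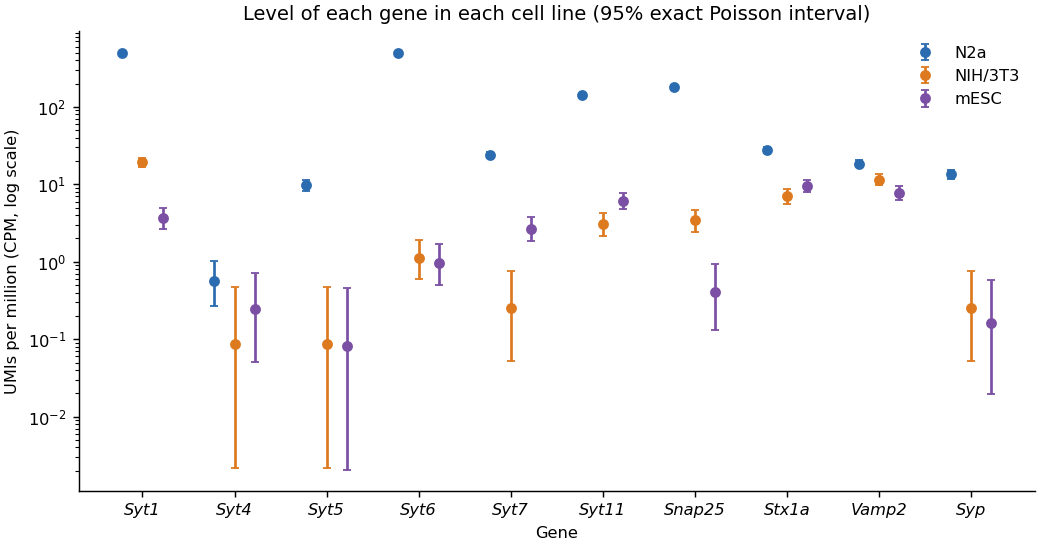
Level of each of the 10 genes (horizontal axis) in N2a, NIH/3T3, and mESC cells, in CPM on a log scale, with 95% exact Poisson intervals. N2a is the highest point for every gene, with Syt6 at 495.5 CPM in N2a and near 1 CPM elsewhere, while the 3 Syt4 intervals overlap and the Vamp2 levels are close together.

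Among the synaptotagmins, Syt6, a member of the family best known from the sperm acrosome reaction, was abundant in N2a and near the limit of counting in both other lines. Its level was 495.5 CPM in N2a (485.3 to 505.9), 1.11 CPM in NIH/3T3 cells (0.592 to 1.90), and 0.974 CPM in mESCs (0.503 to 1.70). The N2a level was 445.9 times that of NIH/3T3 (260.6 to 837.7) and 508.8 times that of mESCs (291.1 to 985.1), and NIH/3T3 and mESCs differed by less than counting error. At least 1 Syt6 UMI was found in 84.3% of N2a cells (82.7% to 85.7%), in 0.589% of NIH/3T3 cells, and in 0.515% of mESCs. The counts behind these levels were 8897 UMIs in N2a, 13 in NIH/3T3 cells, and 12 in mESCs. As a share of the N2a level, Syt6 stood at 0.224% in NIH/3T3 and 0.197% in mESCs. Over the 12 N2a markers, the same share had a median of 0.484% in NIH/3T3 (0% to 11.1%) and of 1.64% in mESCs (0% to 219.6%). Syt6 lay below both medians and within both ranges, which are wide and include Gata3, a marker higher in mESCs than in N2a. These shares therefore cannot decide whether its few UMIs in these lines are expression, and their source was not tested.

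Syt1, the calcium sensor for fast, synchronous release, was high in N2a and was also counted in NIH/3T3. The level was 499.2 CPM in N2a (488.9 to 509.6), 19.3 CPM in NIH/3T3 cells (16.9 to 22), and 3.65 CPM in mESCs (2.66 to 4.89). The 3 intervals do not overlap, and the order was N2a, NIH/3T3, mESC. N2a was 25.8 times NIH/3T3 (22.6 to 29.6) and 136.7 times mESCs (102.1 to 187.5), and NIH/3T3 was 5.29 times mESCs (3.83 to 7.46). Cells with at least 1 Syt1 UMI were 78.4% of N2a cells, 8.05% of NIH/3T3 cells (6.91% to 9.32%), and 2.01% of mESCs. In NIH/3T3, Syt1 stood at 3.87% of its N2a level (3.38% to 4.42%), where Syt6, at a similar count in N2a, stood at 0.224% (0.119% to 0.384%). The intervals of these shares do not overlap.

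Syt11 and Syt7 were also highest in N2a but had a small measured level in mESCs. Syt11, a member that does not bind calcium in the manner of Syt1 and acts in vesicle trafficking, had 141.7 CPM in N2a (136.3 to 147.4), 3.08 CPM in NIH/3T3 cells (2.16 to 4.26), and 6.17 CPM in mESCs (4.86 to 7.72). N2a was 46.1 times NIH/3T3 (33.2 to 65.9) and 23.0 times mESCs (18.3 to 29.3), and the NIH/3T3 and mESC intervals do not overlap. Syt11 UMIs were present in 53.9% of N2a cells, 1.67% of NIH/3T3 cells, and 3.23% of mESCs. Syt7, a slow, high-affinity calcium sensor that also acts in lysosome exocytosis, had 23.8 CPM in N2a (21.6 to 26.2), 2.68 CPM in mESCs (1.84 to 3.76), and 0.256 CPM in NIH/3T3 cells (0.0529 to 0.749). Its N2a level was 8.88 times that of mESCs (6.23 to 13.1), and the 3 UMIs in NIH/3T3 put N2a at 92.7 times that line, with a wide interval of 31.5 to 451.4. The gene Rit1 overlaps Syt11 on the opposite strand and had 16.9, 25.4, and 9.90 CPM in N2a, NIH/3T3, and mESC cells. The strand setting of the counting is not given in the sources used here, so reads in the overlap could belong to either gene. The same limit holds for others of the 10 genes with opposite-strand overlaps, among them Syt1, Syt6, Syt7, and Snap25. For Syt6 the overlapping genes are Atg4a-ps, at 0.325 CPM or less in each line, and Gm66357, which the count matrices lack.

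The remaining synaptotagmins were scarce. Syt5, a calcium-binding paralog of Syt1, had 9.69 CPM in N2a (8.30 to 11.2), from 174 UMIs in 7.02% of the cells, and 1 UMI in each of the other lines. The ratios of 113.4 to NIH/3T3 (20.1 to 4503) and 119.4 to mESCs (21.2 to 4743) therefore have very wide intervals. Syt4, an immediate early gene of neurons whose protein does not bind calcium through its first C2 domain in the usual way, had 10 UMIs in N2a, 1 in NIH/3T3 cells, and 3 in mESCs. These correspond to 0.557, 0.0855, and 0.243 CPM with overlapping intervals, so a difference in Syt4 between the lines was not detectable at this depth.

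The SNARE genes did not share one pattern. Snap25, the plasma membrane SNARE that contributes a pair of helices to the complex, had 178.6 CPM in N2a (172.4 to 184.8), 3.42 CPM in NIH/3T3 cells (2.44 to 4.66), and 0.406 CPM in mESCs (0.132 to 0.947). N2a was 52.2 times NIH/3T3 (38.3 to 73.2) and 440.0 times mESCs (188.4 to 1356). Snap25 UMIs were found in 59.5% of N2a cells, 1.96% of NIH/3T3 cells, and 0.234% of mESCs, where 5 UMIs were counted. NIH/3T3 was 8.43 times mESCs (3.33 to 27.4), the same order of lines as for Syt1.

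Stx1a, the plasma membrane syntaxin that pairs with Snap25, was present in all 3 lines and called highest in N2a with a smaller ratio. Its level was 27.8 CPM in N2a (25.4 to 30.3), 7.10 CPM in NIH/3T3 cells (5.65 to 8.80), and 9.58 CPM in mESCs (7.93 to 11.5). N2a was 3.92 times NIH/3T3 (3.10 to 5.00) and 2.90 times mESCs (2.37 to 3.58), while the NIH/3T3 and mESC intervals overlap. The share of cells with a Stx1a UMI was 18.3% in N2a, 3.73% in NIH/3T3 cells, and 5.10% in mESCs.

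Vamp2, the vesicle SNARE, differed least among the genes with more than 100 UMIs. It had 18.5 CPM in N2a (16.6 to 20.6), 11.5 CPM in NIH/3T3 cells (9.68 to 13.7), and 7.79 CPM in mESCs (6.31 to 9.51). N2a was 1.61 times NIH/3T3 (1.31 to 1.98) and 2.38 times mESCs (1.89 to 3.02), so the gene did not reach 2-fold against both lines, although none of the 3 intervals overlap. Vamp2 UMIs were found in 12.4% of N2a cells, 6.23% of NIH/3T3 cells, and 4.21% of mESCs. Syp, an abundant tetraspan protein of the vesicle membrane that binds Vamp2, was by contrast nearly limited to N2a. It had 13.5 CPM in N2a (11.8 to 15.3) from 242 UMIs, against 3 UMIs in NIH/3T3 and 2 in mESCs, and 9.30% of N2a cells had a Syp UMI. The Syp ratios were 52.6 to NIH/3T3 (17.8 to 256.6) and 83.0 to mESCs (22.7 to 689.6).

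Shares of cells depend on depth, and N2a cells were deeper than the others. When 1000 UMIs were drawn at random from every cell, with 0 cells left out, the share with Syt6 was 39.1% in N2a (37.1% to 41.1%), 0.0982% in NIH/3T3 cells, and 0.0936% in mESCs. For Syt1 the thinned shares were 35%, 1.62%, and 0.562%, and for Snap25 15.2%, 0.393%, and 0%, where 0 of 2137 mESCs, taken to allow 3 counts, allows a share of up to 0.140%. Syt11 fell to 12.6%, 0.196%, and 0.562% of cells in the same order of lines. The thinned shares of Stx1a were 2.41% in N2a (1.83% to 3.12%), 1.28% in NIH/3T3 cells (0.835% to 1.86%), and 0.749% in mESCs (0.429% to 1.21%), and those of Vamp2 were 1.55%, 0.933%, and 0.842%. In this random draw, the intervals of N2a and NIH/3T3 overlap for Stx1a and Vamp2, and those of Syt1, Syt6, Syt11, and Snap25 do not. The intervals of N2a and mESCs do not overlap for Stx1a. The draw was not repeated, and shares this low can move between draws. As a mean of per-cell CPM, which needs no draw, Stx1a had 29.6 CPM in N2a, 7.64 CPM in NIH/3T3 cells, and 8.89 CPM in mESCs.

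**Figure D2:**
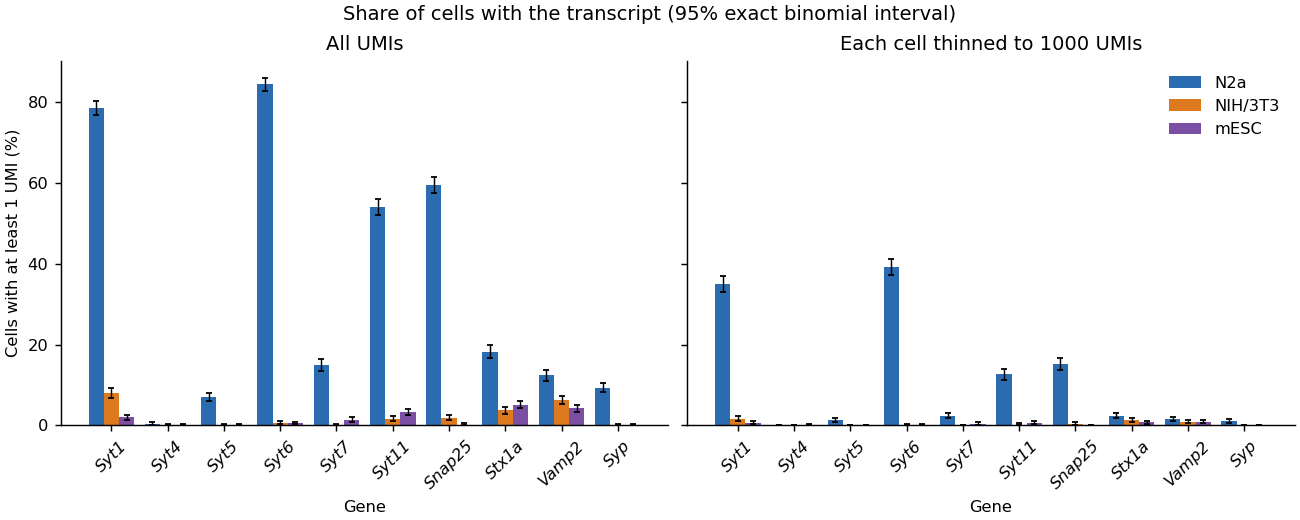
Share of cells (percent) with at least 1 UMI of each gene in N2a, NIH/3T3, and mESC cells, with 95% exact binomial intervals, from all UMIs on the left and after thinning each cell to 1000 UMIs on the right. Syt6 falls from 84.3% to 39.1% of N2a cells with thinning and stays under 1% of cells in the other lines in both panels.

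Each line filled 32 BC1 wells, which are parts of 1 library and not replicate cultures, so their spread is technical and gives no test. The Syt6 level ran from 420.0 CPM in the lowest N2a well through a median of 490.4 to 620.2 in the highest. In NIH/3T3 wells the Syt6 median was 0 and the highest well had 5.26 CPM, and in mESC wells the median was 0 and the highest 10.2 CPM. The groups of wells were far apart, and no NIH/3T3 or mESC well came near the N2a range. Syt1 wells ranged from 382.0 to 636.5 CPM in N2a (median 482.2), from 3.16 to 36.2 CPM in NIH/3T3 cells (median 19.2), and from 0 to 10.2 CPM in mESCs (median 3.94). All 32 NIH/3T3 wells thus held Syt1, so its counts there did not come from a single well. Syt11 wells ranged from 108.9 to 181.4 CPM in N2a, with at most 8.82 CPM in NIH/3T3 wells and 18.1 CPM in mESCs. Snap25 wells ranged from 125.0 to 240.2 CPM in N2a, with at most 13.6 CPM in NIH/3T3 wells and 4.29 CPM in mESCs.

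For these 4 genes, Syt1, Syt6, Syt11, and Snap25, the lowest N2a well was above the highest well of both other lines, which held for 3.89% of all genes tested. No gene of the 10 was apart in this way in NIH/3T3 or mESC wells, where 3.28% and 4.24% of all genes were. For the other 6 genes the wells of the lines overlapped. Stx1a wells spanned 13.5 to 49.0 CPM in N2a, 0 to 15.1 CPM in NIH/3T3 cells, and 3.22 to 17.8 CPM in mESCs, so only the lower N2a wells met the others. Vamp2 wells spanned 7.10 to 29.4 CPM in N2a, 2.93 to 29.3 CPM in NIH/3T3 cells, and 0 to 20.4 CPM in mESCs, and the NIH/3T3 wells covered nearly the whole N2a range. Syt7 wells spanned 8.69 to 34.8 CPM in N2a and reached 9.61 CPM in mESCs. The lowest N2a well had 2.95 CPM of Syt5 and 2.29 CPM of Syp, which the highest well of another line exceeded, at 3.66 and 4.23 CPM, both in NIH/3T3. The kept NIH/3T3 cells held 1 UMI of Syt5 and 3 UMIs of Syp in all, so these overlaps rest on very few UMIs.

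**Figure D3:**
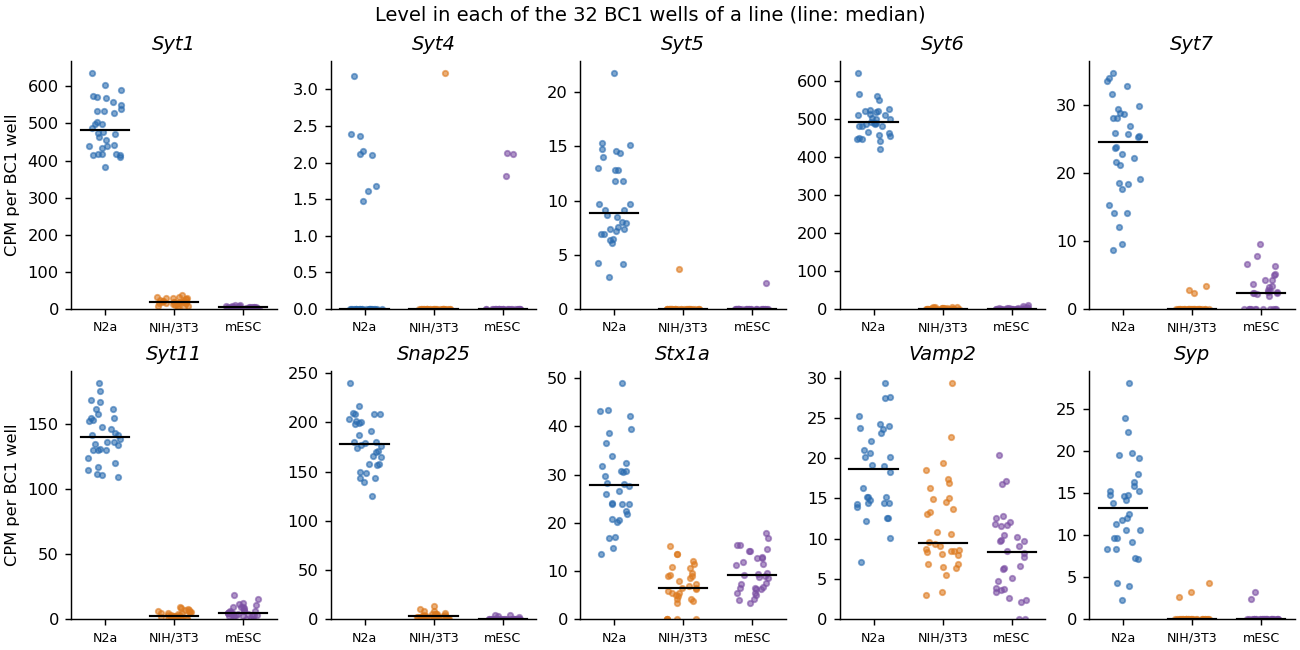
Level of each gene (CPM, linear scale that differs between panels) in each of the 32 BC1 wells of N2a, NIH/3T3, and mESC cells, where each point is a well and the line is the median. The wells separate completely for Syt1, Syt6, Syt11, and Snap25, whose lowest N2a wells are at 382.0, 420.0, 108.9, and 125.0 CPM, and overlap for Vamp2.

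Within N2a, 4 of the 10 genes, Syt1, Syt6, Syt11, and Snap25, were counted in more than 50% of the cells, and the other 6 in 0.430% (Syt4) to 18.3% (Stx1a). An N2a cell had UMIs of a median of 3 of the 10 genes, and 71.1% of N2a cells had at least 3 of them, against 0.0491% of NIH/3T3 cells (1 cell) and 0.140% of mESCs (3 cells). None of the genes was counted in 3.27% of N2a cells, 80.2% of NIH/3T3 cells, and 84.9% of mESCs. After thinning to 1000 UMIs, 28.3% of N2a cells, 95.6% of NIH/3T3 cells, and 96.8% of mESCs had none. The N2a median then fell to 1 gene, and 6.89% of thinned N2a cells had at least 3, against 0% in each other line. Syt6 had a median of 3 UMIs per N2a cell and at most 35, and the 10% of cells with the most Syt6 UMIs held 34.0% of them. Syt1 had a median of 2 UMIs per N2a cell, but at most 91, and the top 10% of cells held 39.6% of its UMIs. Snap25 was counted with 5 or more UMIs in 136 N2a cells and Syt11 in 80.

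**Figure D4:**
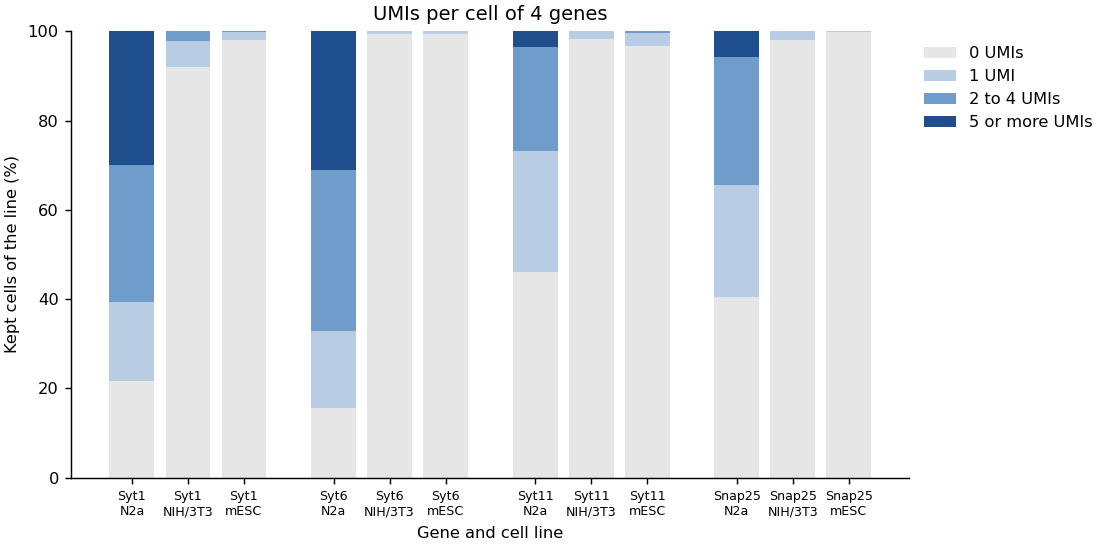
Share of the kept cells of each line (percent) with 0, 1, 2 to 4, or 5 or more UMIs of Syt1, Syt6, Syt11, and Snap25. In N2a, 695 cells had 5 or more Syt1 UMIs and 721 had 5 or more Syt6 UMIs, while Syt6 was absent from 2025 of 2037 NIH/3T3 cells.

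The spread between cells differed between Syt1 and Syt6 at almost the same mean. In N2a cells thinned to 1000 UMIs, where counting alone would give a variance equal to the mean, the ratio of variance to mean was 1.32 for Syt1 and 1.06 for Syt6. Among the 372 genes whose thinned mean lay within 1.5 times that of Syt1, the median ratio was 1.08 and 96.8% had a lower ratio than Syt1, whereas 33.7% of the 365 genes around Syt6 had a lower ratio than Syt6. The ratios of Syt11 and Snap25 were 1.07 and 1.06. In NIH/3T3, Syt1 had a ratio of 1.30, against a median of 1.01 over 2113 genes of similar mean. Only 33 of the 2037 thinned NIH/3T3 cells had a Syt1 UMI, so a few cells can set this ratio.

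The cells behind the Syt1 spread were therefore described, by cuts chosen after the values were seen. In NIH/3T3, 46 cells with at least 2 Syt1 UMIs (2.26% of cells) held 47.8% of the Syt1 UMIs of the line and came from 25 of the 32 wells. Their summed N2a marker level was 16.3 CPM, against 19.4 CPM in the other 1991 NIH/3T3 cells, and their NIH/3T3 marker level was 3344 CPM, against 2812 CPM. Syt6 had 4.65 CPM in the 46 cells, from 2 UMIs, against 0.976 CPM, from 11 UMIs, in the others. The N2a marker and Syt6 levels of so few cells rest on few UMIs. The source of the Syt1 UMIs in these cells was not tested. These cells were deeper, with a median of 8808 UMIs against 4797. In N2a, 41 cells with at least 20 Syt1 UMIs held 12.9% of the Syt1 UMIs, at a median of 21766 UMIs per cell. By the choice of cells, Syt1 was higher in these N2a cells, at 1197 CPM against 459.6 CPM in the other 2282. Syt6, which was not used to choose them, stood at 555.8 and 492.1 CPM.

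Differences with depth and co-detection were small within N2a. In the 775 shallowest N2a cells, with a median of 2637 UMIs, Syt6 had 489.6 CPM and Syt1 493.5 CPM. In the 774 deepest, Syt6 had 501.6 CPM and Syt1 501.9 CPM, and the intervals overlap for both genes. Syt1 and Syt6 were found together in 346 of 2323 thinned N2a cells, where the product of their shares gives 317.8, with a Pearson correlation of 0.08 across cells that share library and depth. Syt6 and Syt11 were found together in 131 cells against 114.5, and Syt1 and Snap25 in 133 against 123.2. Syt6 and Snap25 were found together in 138 cells against 137.6, and Syt11 and Snap25 in 39 against 44.4. Such weak correlations in sparse counts are given as values only.

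N2a cells divide in culture, and the genes were also set against a G2/M score, the summed UMIs of 24 mitotic genes in thinned cells. The 538 cells with more than 5 of these UMIs are one end of a range, with 366 cells at 5 UMIs or 1 UMI above. Syt6 had 522.5 CPM in these cells (501.3 to 544.4) and 486.8 CPM in the other 1785 (475.1 to 498.7). Syt1 went the other way, with 464.3 CPM (444.4 to 485.0) against 510.4 CPM (498.5 to 522.6). Syt7 had 17.1 CPM (13.5 to 21.5) against 25.9 CPM (23.3 to 28.8). The intervals of the other 7 genes overlap between the groups. These intervals cover counting error only, and the share of all genes that would differ in this way was not counted. The values are therefore a description, and since the cells come from 1 library no test was made.

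Outside the 10 genes, the other synaptotagmins were called in different lines. Of 11 listed, 7 had at least 10 UMIs. Of these, 2 were highest in N2a, 1 in NIH/3T3 cells, 3 in mESCs, and 1 in no line. For this and the following lists, the shares over all genes tested were 9.96% in N2a, 8.98% in NIH/3T3 cells, and 12.8% in mESCs. The median log2 difference between N2a and the higher other line was -1.06 for the 7 synaptotagmins. Syt14, which lacks the calcium-binding residues, had 138.2 CPM in N2a, 0.513 CPM in NIH/3T3 cells, and 56.6 CPM in mESCs. Syt17 had 17.2 CPM in N2a and 1.30 CPM in mESCs, and was at 0 UMIs in NIH/3T3, which allows up to 0.256 CPM. Syt9, a calcium sensor related to Syt1, was the mESC counterpart, with 125.7 CPM in mESCs, 1.56 CPM in N2a, and 0.342 CPM in NIH/3T3, a ratio of 80.6 to N2a (55.6 to 121.7). Syt2, a fast calcium sensor like Syt1, had 17.0 CPM in mESCs and 3.95 CPM in N2a, and Syt3 had 1.54 CPM in mESCs and 0.223 CPM in N2a. Syt8 was counted almost only in NIH/3T3, with 13.5 CPM there, 1 UMI in N2a, and 0 UMIs in mESCs. Each line thus had at least 1 synaptotagmin at a level more than 10 times that of the others.

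Of the related proteins with paired C2 domains, 10 of 12 could be called. Of these, 5 were called in no line, 1 in N2a, 1 in NIH/3T3 cells, and 3 in mESCs. The shares over all genes were 9.96% in N2a, 8.98% in NIH/3T3 cells, and 12.8% in mESCs. Rph3a, a Rab3 effector on vesicles, had 3.34 CPM in N2a, from 60 UMIs, and 1 UMI in each other line. Esyt2, a tether between the endoplasmic reticulum and the plasma membrane, had 283.7 CPM in NIH/3T3, 96.6 CPM in mESCs, and 61.5 CPM in N2a. Sytl3, Esyt3, and Sytl5 were highest in mESCs, at 17.7, 8.36, and 2.2 CPM.

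The other SNAREs, which serve transport in every cell, were mostly alike, with 21 of 26 called in no line, 2 in N2a, 3 in NIH/3T3 cells, and 0 in mESCs. Vamp1, the close paralog of Vamp2, had 33.3 CPM in N2a (ratio of 6.41 to mESCs, 4.95 to 8.43), 3.68 CPM in NIH/3T3 cells, and 5.19 CPM in mESCs. Vamp1 thus had a larger ratio to the higher other line than Vamp2. The NIH/3T3 SNAREs were Vamp5, at 22.7 CPM, Stx4a, at 56.5 CPM, and Stx3, at 31.7 CPM, of which Stx3 had only 2 UMIs in N2a. Vamp3, a broadly expressed SNARE, was listed at 0 UMIs in all 3 lines, and whether this is a lack of transcript or of counting is not known.

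Among the 6 other vesicle lists, the vesicle membrane proteins had the highest median, at a log2 difference of 0.80. Of 23 such genes, 11 were called in no line, 9 in N2a, 2 in NIH/3T3 cells, and 1 in mESCs. Syn2, a synapsin that tethers vesicles in the reserve pool, had 387.3 CPM in N2a, 0.855 CPM in NIH/3T3 cells, and 1.22 CPM in mESCs, a ratio of 318.2 to mESCs (192.8 to 568.8). Slc18a2, the vesicular monoamine transporter, had 147.7 CPM in N2a and no more than 0.513 CPM in another line. Rab3c, a vesicle GTPase, had 151.5 CPM in N2a, 0.256 CPM in NIH/3T3 cells, and 1.06 CPM in mESCs. Sv2c, a vesicle glycoprotein, had 518.6 CPM in N2a and 25.4 CPM in mESCs, and Syngr3, a synaptogyrin, had 18.8 and 0.649 CPM. Against this direction, Sypl1, a widely expressed relative of Syp, was highest in NIH/3T3, at 178.8 CPM against 39.8 CPM in N2a and 33.1 CPM in mESCs. Rab27b was also highest in NIH/3T3, at 4.53 CPM, and Rab3b was highest in mESCs, at 8.68 CPM.

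Of the 30 docking, priming, and fusion genes tested, 12 were called in no line, 9 in mESCs, 7 in N2a, and 2 in NIH/3T3 cells. The shares over all genes were 12.8% in mESCs, 9.96% in N2a, and 8.98% in NIH/3T3 cells. The median log2 difference of this list was -0.21. Some paralogs were called in different lines and others in the same line. Unc13a, a priming factor, had 104.1 CPM in N2a and 4.46 CPM in mESCs, whereas Unc13b had 1.34 CPM in N2a and 51.9 CPM in mESCs. Among the active zone scaffolds, Rims3 had 64.3 CPM in N2a and 10.7 CPM in mESCs, whereas Rims1 had 0.334 CPM in N2a and 71.8 CPM in mESCs. Rims2 was called in N2a like Rims3, with 1020.5 CPM in N2a and 289.2 CPM in mESCs, and Cplx2 in N2a like Cplx1, with 12.6 CPM in N2a and 5.64 CPM in NIH/3T3, both named after their values were seen. Cplx1, the complexin that clamps assembled SNAREs, had 89.9 CPM in N2a, Rimbp2 had 110.7 CPM, and Ppfia2 had 8.86 CPM, with at most 3.25 CPM of any of them in another line. In mESCs, Cadps2 had 28.8 CPM, Pclo 21.0 CPM, and Stxbp6 8.60 CPM, each under 1 CPM in the other lines. Stxbp3, at 75.1 CPM, and Unc13c, at 3.42 CPM, were highest in NIH/3T3.

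Of the 15 vesicle recycling genes, 10 were called in no line, 2 in N2a, 1 in NIH/3T3 cells, and 2 in mESCs. Their median log2 difference was -0.31. The largest ratio was that of Sh3gl2, an endophilin, with 291.7 CPM in mESCs and 0.446 CPM in N2a, a ratio of 654.6 (331.9 to 1517). Its paralog Sh3gl3 had 108.8 CPM in N2a, 32.2 CPM in NIH/3T3 cells, and 7.71 CPM in mESCs. Amph, amphiphysin, had 78.4 CPM in mESCs and 0.557 CPM in N2a, and Snap91, a clathrin adaptor of neurons, had 53.7 CPM in N2a and 8.28 CPM in mESCs. Dnm3 was highest in NIH/3T3, at 9.66 CPM. The median over all genes tested was -0.36, and 9.96% of them were called in N2a, 8.98% in NIH/3T3 cells, and 12.8% in mESCs.

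**Figure D5:**
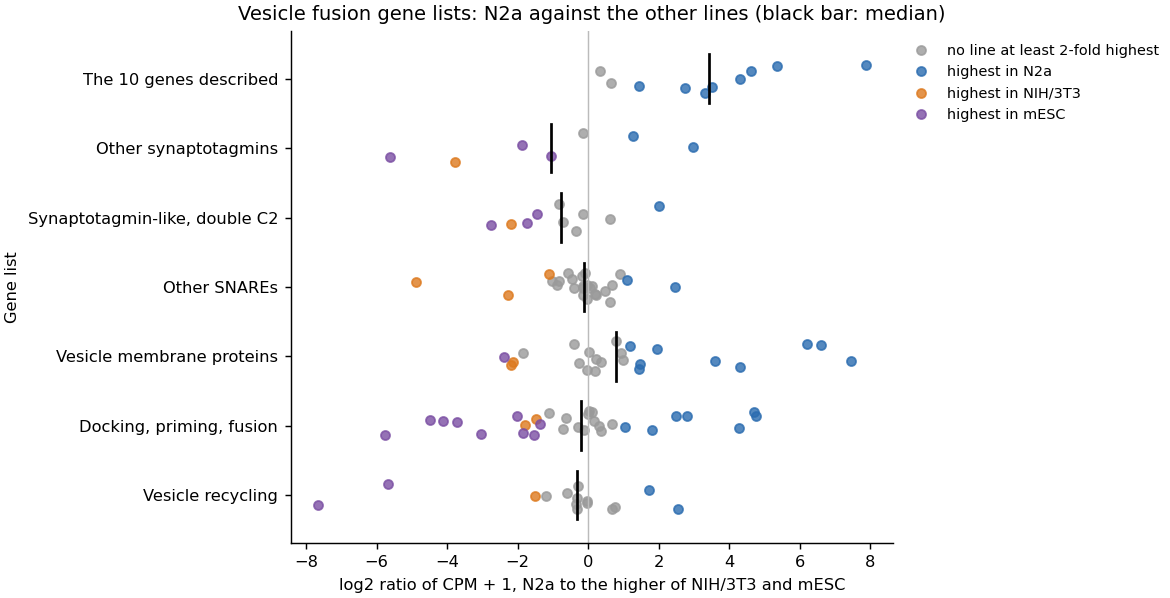
Difference between N2a and the higher of NIH/3T3 and mESC cells for each gene of 7 lists, as the log2 ratio of CPM + 1, where points are genes, colors give the line called highest, and black bars are medians. The 10 genes have a median of 3.41, the vesicle membrane proteins 0.80, and the other synaptotagmins -1.06, with points on both sides of 0.

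The genes most like Syt6 were found by the smallest distance over the 3 lines in log2 of CPM + 1, among all genes tested. Myt1l, a transcriptional repressor of non-neuronal genes, was nearest, with 434.7, 0.855, and 1.38 CPM in N2a, NIH/3T3, and mESC cells (distance 0.378). Syn2 followed at a distance of 0.435, then Cfap97d2 (394.6, 0.940, and 1.54 CPM) at 0.505, Hand2 at 0.577, and Esr1, the estrogen receptor (406.2, 1.03, and 1.95 CPM), at 0.648. The share of N2a cells with a UMI was 80.0% for Myt1l, 73.7% for Syn2, 72.9% for Cfap97d2, 81.7% for Hand2, and 64.8% for Esr1. Of these 5 genes, Syn2 is a synaptic vesicle gene. The likeness rests on 3 values per gene.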

How the data were processed

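The authors processed the sequencing data with CapMux, split reads by BC1 to make the sample-resolved outputs, and aligned them to GRCm39 with GENCODE M30. They deposited raw counts of UMIs for each gene and barcode, which were neither normalized nor filtered. The feature and strand settings of the counting are not given in the sources used here.

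From the 3 sample-resolved matrices, cells of 1000 UMIs or more were kept if no more than 20% of these were mitochondrial, as in the methods of the study, and doublets were not called. UMIs were summed per line and scaled to CPM. All 3 lines came from 1 library with no replicate cultures, so no test between lines was made. BC1 wells were taken as technical parts. The depth was 17955221, 11697865, and 12322098 kept UMIs for N2a, NIH/3T3, and mESC cells, and 0 UMIs, taken to allow 3 counts, limit a level to 0.167, 0.256, and 0.243 CPM.

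The 10 genes and all gene lists were chosen with earlier results of these data known. Of each list, at most the 5 genes with the largest ratio were named for each line they were called in, along with the first 3 markers of each line and the 5 genes nearest to Syt6. The level of 1 listed gene is not reported here. Vamp7 was not matched by symbol and was not used here, and Sypl1 was matched as Sypl. Of 33565 gene identifiers, 32953 were found in GENCODE M39, from which positions and sequences were taken. Alternatives changed the cell filter, the matrix, the scaling, the pseudocount of 1 CPM, and the fold. Scripts were tested on simulated data and ran in Python 3.11.15 with numpy 2.4.6, scipy 1.17.1, pandas 2.3.3, and matplotlib 3.10.9.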

Additional observations from a re-analysis of the deposited data

Results flagged for a closer look

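The pooled output, which the comparisons between lines do not use, held UMIs of these genes that the sample-resolved outputs lacked. For Syt6 these were 285 UMIs, or 2.73% of its 10425 pooled UMIs, and for the 10 genes together 752 UMIs, or 2.47% of 30477. Over all genes, 1142251 UMIs were present only in the pooled output, which was 2.32% of its UMIs, so the genes stood close to the rest of the transcriptome. Syt1 had 248 such UMIs (2.34%).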

How the results depend on the processing

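Of the 10 genes, 8 were highest in N2a under each other cell filter, matrix, weighting, and scaling tried, 7 with a 4-fold call, which Stx1a did not reach, and 6 with a pseudocount of 10 CPM, where Syt5 and Stx1a were lost. The log2 difference between N2a and the higher other line stayed above 0 for all 10 genes in every setting tried, from 5.51 to 7.98 for Syt6, from 4.12 to 4.69 for Syt1, and from 0.41 to 0.76 for Vamp2, and its lowest values for Syt6 and Syt1 came with the pseudocount of 10 CPM by construction. With median-of-ratios size factors, Syt6 in N2a was 477.5 CPM in place of 495.5. Over all genes, a pseudocount of 10 CPM gave 911 N2a, 859 NIH/3T3, and 1017 mESC calls, and a 4-fold call gave 830, 728, and 1160, in place of 1917, 1728, and 2472. Depth limits Syt4 in all lines, and Syt5, Syt6, Syt7, and Syp outside N2a, where at most 33 UMIs were counted per line. No paired analysis was possible because the lines came from 1 library without replicate numbers.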

Other observations

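UMIs outside the kept cells, in barcodes of few UMIs, also held these genes. In N2a barcodes outside the kept cells Syt6 had 442.8 CPM, from 1199 UMIs, and Syt1 390.4 CPM, from 1057 UMIs, against 495.5 and 499.2 CPM in the kept cells. Outside the kept cells of NIH/3T3, Syt6 had 6.64 CPM from 12 UMIs and Syt1 17.2 CPM from 31 UMIs, and outside those of mESCs they had 4.51 CPM from 7 UMIs and 8.37 CPM from 13 UMIs.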
